A study of Mus musculus with 2 samples.

Results

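The protein tyrosine phosphatases of the *Ptpn* and *Ptpr* gene families were examined in a pair of total RNA-seq libraries, 1 from pre-pro-B cells and 1 from pro-B cells of the mouse. A gene was taken as a member when its symbol was Ptpn followed by a number, or Ptpr followed by a letter with or without a number, and it had a protein-coding RefSeq transcript among the deposited values. This gave 38 of the 20251 named protein-coding genes, of which 21 encode receptor-type (*Ptpr*) and 17 non-receptor (*Ptpn*) enzymes. The members were covered by 59 transcripts, and 13 of them had several. This rule uses symbols and no measured value, though earlier results of these data were known when the members were chosen.

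The pre-pro-B library came from *Ebf1* -/- cells of female fetal liver, which lack the B lineage transcription factor Ebf1 and do not proceed past this progenitor stage. The pro-B library came from *Rag2* -/- cells of adult male bone marrow, which cannot rearrange their antigen receptor genes. Both were on a C57BL/6 background and were grown on OP-9 stromal cells with Il-7 at 5 ng/mL. The pre-pro-B culture also received Scf and Flt3l, the ligands of the Kit and Flt3 receptors, at 10 ng/mL each. The number of animals behind each culture and the promoters or deleted exons of the alleles are not given in the sources used here. Cell type thus cannot be told apart from genotype, sex, age, tissue of origin and cytokines, and with 1 library each none of the differences below comes with a replicate or a p-value. In such bulk RNA, fewer cells with a transcript and less of it per cell cannot be told apart either.

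Protein tyrosine phosphatases remove phosphate from tyrosine residues and so set, together with tyrosine kinases, how long a signal from a receptor lasts. Receptor-type members span the membrane and carry an extracellular part and 1 or more cytoplasmic phosphatase domains. Non-receptor members are cytoplasmic, nuclear or bound to inner membranes, and many are brought to their substrates by SH2, PEST, FERM, PDZ or Sec14 domains. In lymphocytes, CD45, the product of *Ptprc*, removes the inhibitory phosphate from Src family kinases and is found on all nucleated blood cells. SHP-1, the product of *Ptpn6*, binds the phosphorylated ITIM motifs of inhibitory receptors and dampens antigen receptor signals.

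Levels are in FPKM as the authors estimated them with Cuffdiff, that is, fragments per kilobase of each transcript after division by the mapped reads of the library, and are therefore per length. The only error deposited with them is Cuffdiff's 95% interval for each transcript, and sums over the transcripts of a gene have none. The libraries held 87.9 M (pre-pro-B) and 79.8 M (pro-B) aligned reads by the study's own account. For a member listed at 0 in both libraries, a count of 3 fragments would correspond to an FPKM of between 0.00287 and 0.0110 in the pre-pro-B library and between 0.00316 and 0.0122 in the pro-B library, depending on transcript length. An entry of 0 is called listed at 0 and is not read as absence, because *Rps27*, a ribosomal protein gene, was itself listed at 0 in the pre-pro-B library.

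Markers of the labelled cell types were checked by the 2-fold rule given below. By it, 19.1% of all genes compared were lower and 12.2% higher in the pro-B library. A marker was compared when it reached an FPKM of 1 in at least 1 library. Lower markers under 1 in the pro-B library thus passed through the pre-pro-B library alone. All 10 pro-B markers were higher in the pro-B library, and their FPKM summed to 97.3 (pre-pro-B) and 3261 (pro-B). The 5 multipotent progenitor markers that reached an FPKM of 1 were all lower in the pro-B library (sum over 6 markers 1003 and 3.82). Their sixth, *Gata2*, was listed at 0 in both. Myeloid markers were also higher in the pre-pro-B library (7 of 7 compared, sum over 11 markers 943 and 9.46), led by *Tyrobp* (463 and 1.28) and *Fcer1g* (395 and 1.46), which progenitors and NK cells express too. The defining granule genes *Elane* and *Ctsg* were listed at 0 in both libraries, whereas *Mpo* had 35.7 and 0.122 FPKM. Of the T cell and NK cell markers, 6 of 6 compared were lower in the pro-B library (sum over 10 markers 129 and 6.51), among them *Nkg7* (31.3, and listed at 0) and *Cd3g* (36.8 and 0.0351), while *Cd3e* and *Cd3d* were under 1 in both. Of 8 stromal markers compared, 3 were higher in the pro-B library, 2 lower and 3 within 2-fold, with a median log2 ratio of 0.83. Higher were *Fn1* (1.16 and 5.16), *Col6a1* (1.17 and 4.05) and *Col1a2* (0.707 and 2.82), lower were *Pdgfrb* (15.9 and 0.377) and *Thy1* (5.95, and listed at 0), and the 14 stromal genes summed to 27.0 and 19.1. *Dcn* and *Postn* were listed at 0 in both. Of the erythroid, megakaryocyte and mast cell markers, 2 were compared, 1 of them lower in the pro-B library, *Cpa3* (10.5 and 0.0296). The part of such other cells in the phosphatase values was not tested. The FPKM of the targeted genes was 64.0 (pre-pro-B) and 273 (pro-B) for *Ebf1* and 34.5 and 22.9 for *Rag2*. These values cover whole transcripts and not the deleted parts alone, so they do not check the genotypes.

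The CD45 gene carries the largest difference among the phosphatases, and its variable exons are shown with the exon after them. Their lengths are set beside the differences in length between the deposited *Ptprc* transcripts further on, which assigns no exon to a transcript. Exons A, B and C encode the variable outer end of CD45. The isoform with all of them is known as B220 on B lineage cells, and the shortest isoform without them as CD45RO. They are given from the mm9 genome, 5′ to 3′ on the minus strand of chromosome 1. Exon A is exon 4 of 33 of the annotated transcript (chr1:140019033-140019161, 129 bases), exon B is exon 5 (chr1:140016597-140016743, 147 bases), exon C is exon 6 (chr1:140014331-140014471, 141 bases), and the exon after C is exon 7 (chr1:140013531-140013602, 72 bases). No part is in capitals.
Exon A: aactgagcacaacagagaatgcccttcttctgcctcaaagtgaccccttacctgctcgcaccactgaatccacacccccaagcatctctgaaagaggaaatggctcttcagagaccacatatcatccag
Exon B: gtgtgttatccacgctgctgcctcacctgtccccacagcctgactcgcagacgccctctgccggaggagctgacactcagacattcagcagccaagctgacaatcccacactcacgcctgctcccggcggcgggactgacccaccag
Exon C: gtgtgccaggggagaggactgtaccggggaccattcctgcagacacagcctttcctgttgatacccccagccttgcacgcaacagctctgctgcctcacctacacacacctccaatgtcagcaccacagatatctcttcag
Exon after C: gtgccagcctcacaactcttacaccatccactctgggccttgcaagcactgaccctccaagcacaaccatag

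Of the 38 members, 19 reached a summed FPKM of 1 in at least 1 library, 6 receptor-type and 13 non-receptor. In pre-pro-B cells *Ptprc* was the most abundant, followed by *Ptpn6*, *Ptpre* and *Ptpra*. In pro-B cells *Ptpra*, *Ptpn18*, *Ptpn4*, *Ptprj* and *Ptpn7* came first, at FPKM of between 33.6 and 37.0, and *Ptprc* was 16th of 18. *Ptprs* could not be compared because its quantification failed in the pro-B library. A gene was counted as higher or lower when log2((pro-B FPKM + 1)/(pre-pro-B FPKM + 1)) was at least 1 or at most -1. By this rule 8 of the 18 members compared were lower in the pro-B library (44.4%), 1 was higher (5.56%) and 9 lay within 2-fold. Over all 10525 genes compared in the same way, 19.1% were lower and 12.2% higher. Of the 8 lower genes, *Ptprc*, *Ptpn21* and *Ptprf* were under 1 in the pro-B library and passed the filter through the pre-pro-B library alone. The count of lower members was 5 of 15 when an FPKM of 1 was required in both libraries, where 11.3% of all genes were lower, and 5 of 18 with a pseudocount of 5, where 9.44% were. The median log2 ratio was -0.60 over the members and -0.14 over all genes.

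**Figure D1:**
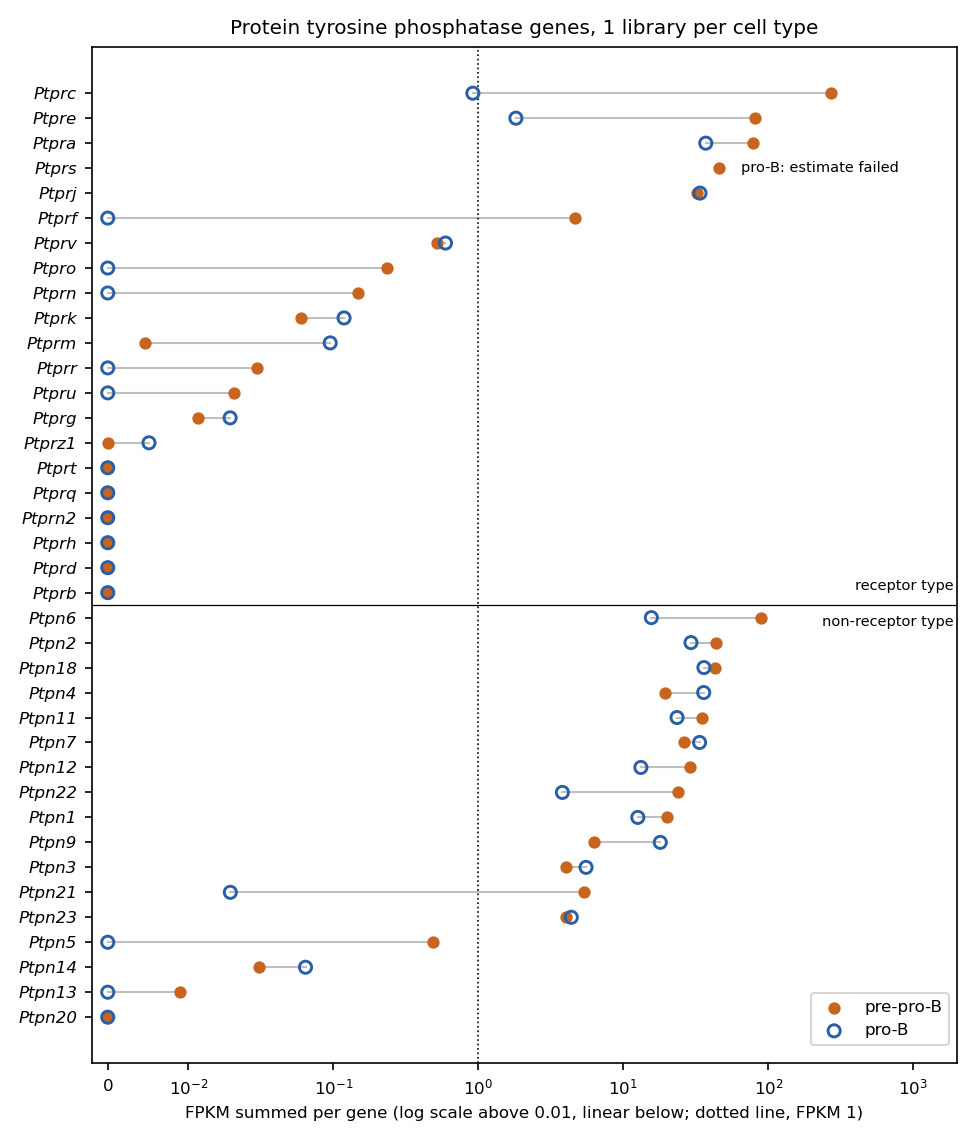
Summed FPKM of each of the 38 phosphatase genes in the pre-pro-B (filled points) and pro-B library (open circles), on an axis that is logarithmic above 0.01 and linear below. Each point is 1 library and no error bars exist for sums. *Ptprc* goes from 269 in pre-pro-B to 0.917 in pro-B, and 19 genes lie left of the dotted line at 1 in both libraries.

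The receptor-type and the non-receptor members were also counted separately. Of the 5 receptor-type genes compared, 4 were lower in the pro-B library, 1 lay within 2-fold and 0 were higher. Of the 13 non-receptor genes, 4 were lower, 8 within 2-fold and 1 was higher. Over all genes compared, 19.1% were lower and 12.2% higher. Among the lower genes, the receptor-type *Ptprc* and *Ptprf* and the non-receptor *Ptpn21* passed the filter through the pre-pro-B library alone. With a pseudocount of 5, the receptor-type *Ptpra* and *Ptprf* and the non-receptor *Ptpn12* were no longer counted as lower. The median log2 ratio was -2.50 for receptor-type and -0.56 for non-receptor genes. The receptor-type median is the value of *Ptprf*, which was listed at 0 in the pro-B library, so the size of that ratio depends on the pseudocount. Other pseudocounts also changed which gene was the middle one. The median was -5.41, the value of *Ptpre*, with a pseudocount of 0.1 and -0.99, the value of *Ptpra*, with a pseudocount of 5. Without *Ptprf* the median of the other 4 genes was -2.97. Whether the families differ was not tested, since genes are not replicates. The FPKM of all compared members summed to 813 in pre-pro-B and 305 in the pro-B library. *Ptprc* made up 33.0% of the first sum and 0.301% of the second, and without it the sums were 545 and 304.

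**Figure D2:**
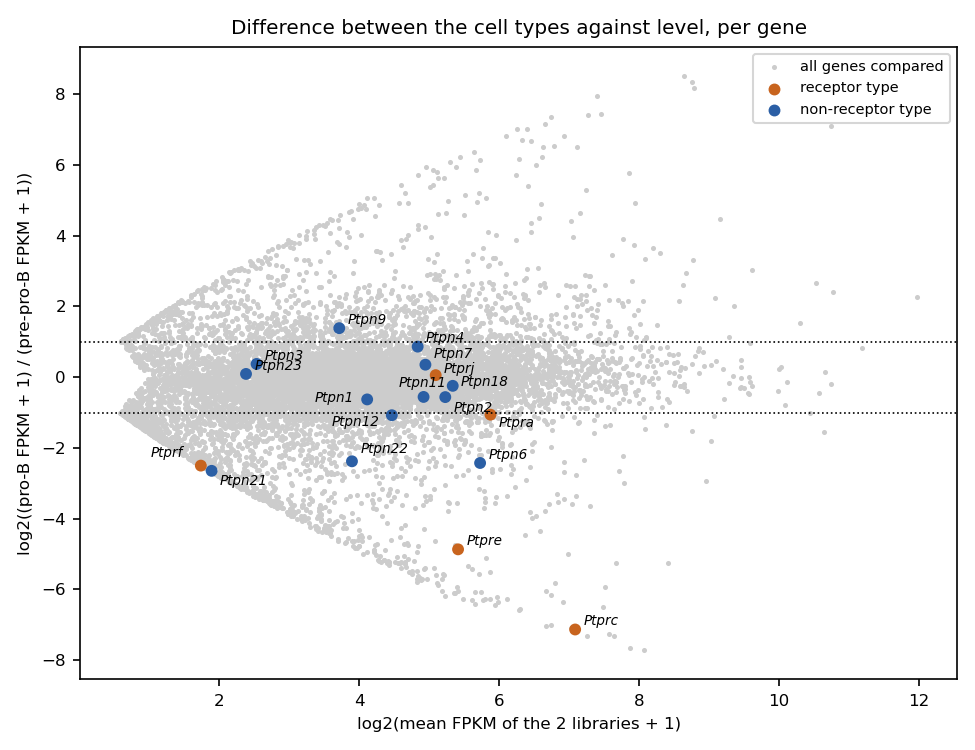
Log2 ratio of the pro-B over the pre-pro-B FPKM, with 1 added to each, against the log2 mean FPKM of both libraries for 10525 genes (grey), with the 18 phosphatase genes compared in colour. Dotted lines mark 2-fold. *Ptprc* at -7.14 and *Ptpre* at -4.87 are the lowest of the coloured points, and *Ptpn9* at 1.38 is the 1 phosphatase gene above the upper line.

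*Ptprc* (chromosome 1 of mm9, 139959438 to 140071882, minus strand) had 269 FPKM, summed over its transcripts, in the pre-pro-B library and 0.917 in the pro-B library. The pro-B FPKM was 293-fold lower. Fold values of single genes, here and below, are ratios of FPKM without the pseudocount. With 1 added to each FPKM the log2 ratio was -7.14, which was the 6th lowest of 10525 genes. Over all named genes without a failed transcript, those listed at 0 included, *Ptprc* lay at the 99.5th percentile in pre-pro-B cells. In the pro-B library it lay at the 53.5th, which is under an FPKM of 1. All its transcripts had a status of OK in both libraries. CD45 is known on all nucleated blood cells, and no second measure of the low pro-B value was examined here. The value is therefore not read as a loss of CD45 from pro-B cells. The part that the division of reads among transcripts has in it was not tested. Its known partner *Ptprcap*, which encodes the CD45-associated protein, had 114 FPKM (pre-pro-B) and 126 FPKM (pro-B), a log2 ratio of 0.15.

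The *Ptprc* signal was split over 3 RefSeq transcripts. NM_011210 (5249 bases) had 164 FPKM in the pre-pro-B library (interval 0.647 to 422) and 7.45e-05 in the pro-B library, where both limits were listed at 0. NM_001111316 (5568 bases) had 105 in the pre-pro-B library (interval 0.0242 to 306) and 0.141 in the pro-B library (interval 0 to 0.742). The third, NM_001268286 (5177 bases), was listed at 0 in the pre-pro-B library and had 0.776 in the pro-B library (interval 0 to 2.08). NM_011210 therefore held 60.9% of the gene's FPKM in the pre-pro-B library and NM_001111316 held 39.1%, while NM_001268286 held 84.6% of the low pro-B sum. The longest transcript exceeds NM_011210 by 319 bases, which is the summed length of exons A, B and C (417 bases) less the 98 bases of the first annotated exon. NM_011210 exceeds the shortest transcript by 72 bases, the length of the exon after C. These are sums of lengths only, since the exons of each RefSeq transcript were not analysed here. No transcript is therefore assigned to B220 or to CD45RO. In pre-pro-B cells the intervals of both transcripts overlapped widely, so their order is not resolved.

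*Ptpre* and *Ptpra* encode the related receptor-type enzymes PTPε and PTPα, which have short outer parts and act on Src family kinases. *Ptpre* (chromosome 7, 142729507 to 142877977) had 1 transcript, with 81.3 FPKM in the pre-pro-B library (interval 8.12 to 193) and 1.82 in the pro-B library (interval 0.0146 to 5.12). The intervals did not overlap, and the pro-B level was 44.8-fold lower, the 95th lowest log2 ratio of all genes. *Ptpra* (chromosome 2, 130276014 to 130380036) had summed FPKM of 78.3 (pre-pro-B) and 37.0 (pro-B), which is 2.12-fold lower in the pro-B library with a log2 ratio of -1.06. Transcript NM_001163688 made up 99.6% of it in each library, with overlapping intervals of 5.39 to 206 and 3.67 to 96.3. The call of *Ptpra* was lost when the libraries were rescaled by their median ratio (-0.95) and with a pseudocount of 5 (-0.99).

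Among the other receptor-type genes, *Ptprj*, which encodes CD148, an activator of Src family kinases in B cells and macrophages, had nearly the same level in both libraries, at 32.4 (pre-pro-B) and 33.8 FPKM (pro-B). Its transcripts NM_001135657 (17.0 and 17.1) and NM_008982 (15.4 and 16.7) shared it about equally in both libraries, with 52.4% and 50.7% in the former. *Ptprs* and *Ptprf* belong to the LAR type with immunoglobulin-like outer domains, and *Ptprs* encodes a receptor for proteoglycans. *Ptprs* had 46.0 FPKM over its transcripts in the pre-pro-B library, the 5th highest member there. It came from NM_001252456 (31.8, interval 0.795 to 68.6), NM_011218 (9.45, interval 0 to 29.5) and NM_001252453 (4.74, interval 0 to 20.6). All 4 of its transcripts failed in the pro-B library, where they have no value. *Ptprf* had 4.67 in the pre-pro-B library (interval 0.114 to 11.7) and was listed at 0 in the pro-B library. It was no longer counted as lower with a pseudocount of 5 (-0.95).

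The SH2 domain enzymes are SHP-1 and SHP-2. *Ptpn6* (chromosome 6, 124670725 to 124688732) had 88.3 FPKM over its transcripts in the pre-pro-B and 15.6 in the pro-B library, 5.66-fold lower, with a log2 ratio of -2.43. *Ptpn11*, which encodes SHP-2, a positive regulator of growth factor signals through Ras and Erk, had 35.1 and 23.5, a log2 ratio of -0.56. Both were expressed in both libraries. The *Ptpn6* transcripts differed in share between the libraries. NM_013545 (2199 bases) had 88.3 FPKM in pre-pro-B (interval 3.40 to 174) and 10.2 in pro-B (interval 0.401 to 21.98). NM_001077705 (2210 bases) had 0.0140 in pre-pro-B (interval 0 to 0.0239) and 5.40 in pro-B (interval 0 to 14.8), so its share was 0.0158% in pre-pro-B and 34.6% in the pro-B library. The intervals overlapped for each transcript, and both are of nearly the same length. *Ptpn11* was almost wholly NM_001109992 in both libraries (93.9% of the sum in pre-pro-B).

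The PEST enzymes bind adaptors through proline-rich tails. *Ptpn22*, whose product pairs with the kinase Csk to restrain antigen receptor signals, had 23.98 FPKM in the pre-pro-B library (interval 3.75 to 44.2) and 3.80 in the pro-B library (interval 0 to 8.46), 6.31-fold lower with overlapping intervals (chromosome 3, 103663718 to 103716170). *Ptpn12*, a regulator of adhesion and the cytoskeleton, had 29.0 FPKM (pre-pro-B) and 13.2 FPKM (pro-B), a log2 ratio of -1.08. The call of *Ptpn12* was lost under median-ratio scaling (-0.97) and with a pseudocount of 5 (-0.90). *Ptpn18*, the third of the type, had 42.8 and 36.0, a log2 ratio of -0.25. *Csk* itself had 43.8 and 44.0.

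*Ptpn9* (chromosome 9, 56842775 to 56910612) was the 1 member higher in the pro-B library. Its product carries a Sec14 domain and sits on secretory vesicles. Its FPKM was 6.27 in the pre-pro-B library (interval 0.156 to 13.5) and 18.0 in the pro-B library (interval 0.799 to 35.5), which is 2.87-fold higher with a log2 ratio of 1.38. The intervals overlapped, and its log2 ratio was the 854th highest of 10525. *Ptpn4*, a FERM and PDZ domain enzyme, came next with 19.2 (interval 4.21 to 34.3) and 35.8 (interval 8.28 to 63.4), a log2 ratio of 0.86.

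The remaining non-receptor genes above an FPKM of 1 lay within 2-fold, apart from *Ptpn21*. The endoplasmic reticulum enzyme PTP1B, from *Ptpn1*, and its nuclear relative TC-PTP, from *Ptpn2*, both act on Jak kinases or their receptors. *Ptpn1* had 20.03 FPKM (pre-pro-B) and 12.6 FPKM (pro-B), a log2 ratio of -0.63. *Ptpn2* had, in the same order, 43.8 and 29.3, a log2 ratio of -0.56, and its short transcript NM_008977 held 89.1% and 92.8% of it. *Ptpn7*, whose product inactivates Erk and p38 in blood cells, had 26.1 and 33.6. *Ptpn3*, the FERM and PDZ relative of *Ptpn4*, had 4.04 and 5.53. *Ptpn23*, which takes part in endosomal sorting, had 4.05 and 4.38. *Ptpn21*, another FERM domain enzyme, had 5.40 in the pre-pro-B library and 0.0195 in the pro-B library, a log2 ratio of -2.65. The *Ptpn21* transcript with the higher pre-pro-B FPKM, NM_001146199, had 3.82 (interval 0.0352 to 8.65) and 2.86e-07 (interval 0 to 0.0117). Its other transcript, NM_011877, had 1.58 (interval 0 to 4.85) and 0.0195 (interval 0 to 0.0636), and these intervals overlapped.

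**Figure D3:**
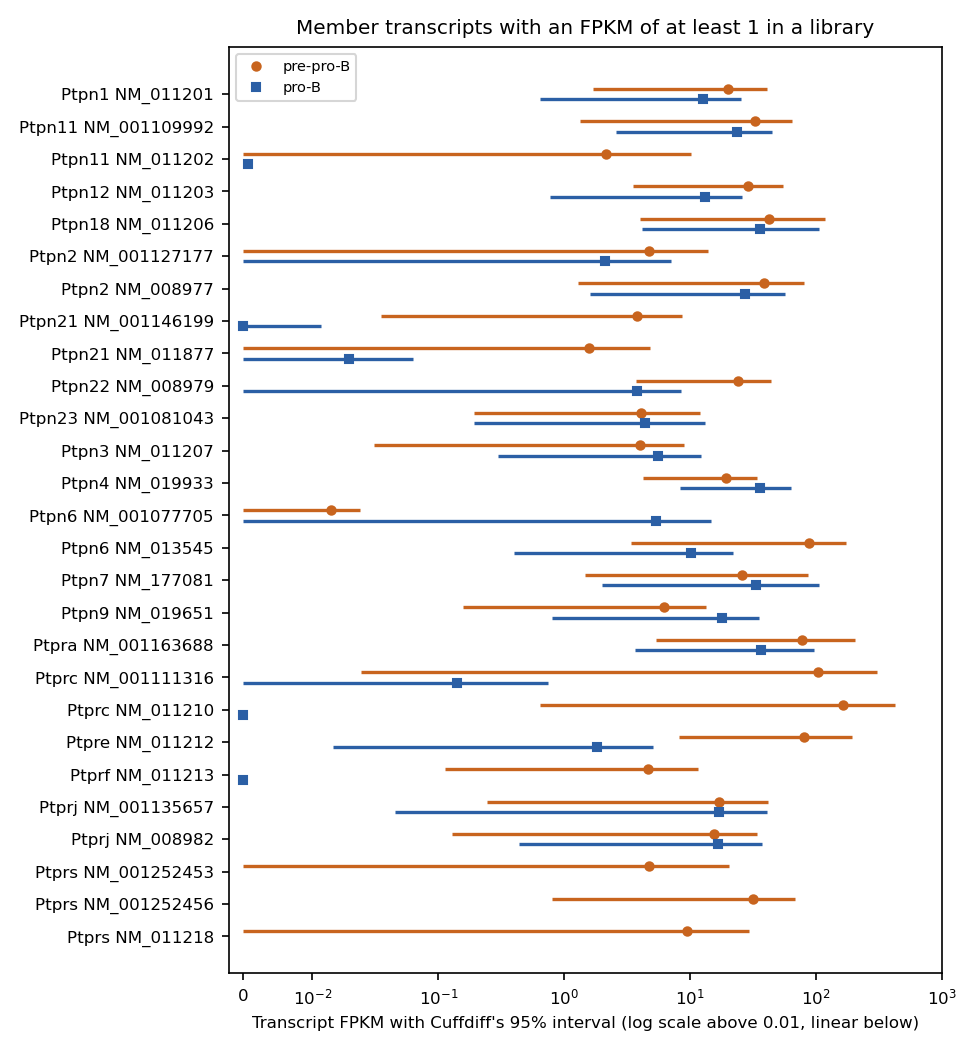
FPKM of each phosphatase transcript at 1 or more in a library, with Cuffdiff's 95% interval as a bar, for pre-pro-B (circles) and pro-B cells (squares), on an axis that is logarithmic above 0.01 and linear below. *Ptprs* has no pro-B value because its quantification failed. The bars of the cell types are apart for 1 transcript each of *Ptprc*, *Ptpre*, *Ptprf* and *Ptpn21*.

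Cuffdiff's intervals gave a stricter reading. Of 24 member transcripts compared, 4 had intervals that did not overlap and were lower in the pro-B library, and 0 were higher. Over 12868 protein-coding transcripts, 2.99% were apart and lower and 1.39% apart and higher. The 4 were NM_011210 of *Ptprc*, the single transcripts of *Ptpre* and *Ptprf*, and NM_001146199 of *Ptpn21*. Only that of *Ptpre* reached an FPKM of 1 in both libraries. Those of *Ptprc*, *Ptprf* and *Ptpn21* passed the filter through the pre-pro-B library alone, where they are high. For *Ptprc* and *Ptprf* the pro-B interval had no width, with both limits listed at 0. These intervals come from a model over 1 library per cell type and carry no spread between cultures.

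The other 19 members were under 1 in both libraries, 15 receptor-type and 4 non-receptor. The highest of them was *Ptprv*, at 0.522 and 0.594. *Ptprk*, *Ptprm*, *Ptprg* and *Ptpn14* were also above 0 in both, at no more than 0.119. Listed at 0 in the pro-B library alone were *Ptpn5*, *Ptpro*, *Ptprn*, *Ptprr*, *Ptpru* and *Ptpn13*, which had between 0.00898 and 0.487 in the pre-pro-B library. *Ptprz1* was listed at 0 in the pre-pro-B library and had 0.00512 in the pro-B library. *Ptprb*, *Ptprd*, *Ptprh*, *Ptprn2*, *Ptprq*, *Ptprt* and *Ptpn20* were listed at 0 in both. Many of these are known from other tissues, such as the endothelial *Ptprb*, the neural *Ptprd*, *Ptprz1*, *Ptprt* and *Ptpn5*, the secretory granule genes *Ptprn* and *Ptprn2*, the podocyte gene *Ptpro* and the inner ear gene *Ptprq*. By structure, none of the 4 MAM-type adhesion receptors, the 2 receptors with a carbonic anhydrase-like domain and the 2 of the IA-2 type reached an FPKM of 1.

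Promoter sequences are shown for the lower genes *Ptprc*, *Ptpre* and *Ptpn22* and for *Ptpn9*, the 1 higher gene. Each is the 250 bases before a RefSeq start on GRCm38.p6, a later build than the mm9 of the FPKM, and no coordinate is compared between the builds. Windows were found for 32 members (46 windows). They were searched on both strands for GAGGAA, a core bound by Ets factors such as PU.1, CAGCTG, an E-box, TGTGGT, a Runx core, and CCCNNGGG, the core of the Ebf1 site. Matches are in capitals, in the orientation of the gene, and each window shown holds at most 1 match, so none overlap there. The *Ptprc* window is chr1:138175306-138175555 (minus strand), that of *Ptpre* is chr7:135593231-135593480 (plus strand), of *Ptpn22* chr3:103859545-103859794 (plus strand) and of *Ptpn9* chr9:56994718-56994967 (plus strand). Of the windows of the lower genes shown, each is one that holds a GAGGAA match. The other *Ptprc* window and the other 2 windows of *Ptpre* hold none, 1 of the latter holds a CCCNNGGG match, and the other *Ptpn22* window holds GAGGAA in 1 place and TGTGGT in 2.
Ptprc promoter: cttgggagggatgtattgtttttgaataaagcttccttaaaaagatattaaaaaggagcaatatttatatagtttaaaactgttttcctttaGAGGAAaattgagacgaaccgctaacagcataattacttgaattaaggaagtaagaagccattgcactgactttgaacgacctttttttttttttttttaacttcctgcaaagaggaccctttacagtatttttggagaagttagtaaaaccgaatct
Ptpre promoter: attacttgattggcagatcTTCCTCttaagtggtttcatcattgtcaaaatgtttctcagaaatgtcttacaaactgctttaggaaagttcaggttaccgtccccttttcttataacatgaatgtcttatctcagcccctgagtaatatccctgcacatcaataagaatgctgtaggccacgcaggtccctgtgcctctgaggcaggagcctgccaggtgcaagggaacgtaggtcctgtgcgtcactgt
Ptpn22 promoter: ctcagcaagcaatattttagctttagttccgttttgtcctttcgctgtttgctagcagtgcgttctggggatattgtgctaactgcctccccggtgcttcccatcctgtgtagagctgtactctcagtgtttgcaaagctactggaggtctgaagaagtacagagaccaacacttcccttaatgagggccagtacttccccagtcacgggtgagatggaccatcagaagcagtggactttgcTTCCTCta
Ptpn9 promoter: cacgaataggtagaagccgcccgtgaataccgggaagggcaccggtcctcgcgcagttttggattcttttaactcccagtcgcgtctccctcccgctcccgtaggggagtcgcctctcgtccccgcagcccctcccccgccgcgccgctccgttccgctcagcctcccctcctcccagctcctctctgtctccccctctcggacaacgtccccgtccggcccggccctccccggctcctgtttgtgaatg

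The *Ptprc*, *Ptpre* and *Ptpn22* windows shown are ones that hold GAGGAA or its reverse complement, so its presence in them is not a result. The *Ptpn9* window held none of the motifs. Of the 7 lower genes with a window, 4 had GAGGAA in at least 1 window, while *Ptpn6*, *Ptpn21* and *Ptprf* had it in none. Over all members GAGGAA was in 18 of 46 windows, CAGCTG in 2, TGTGGT in 6 and CCCNNGGG in 10. Of 19816 RefSeq promoter windows of the same length, 22.4%, 12.4%, 11.8% and 13.8% held them, in the same order. For the lower members the counts were 5, 0, 2 and 3 of 12 windows, from 7 genes. A match is a stretch of letters and not a bound site.

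The partners of these enzymes were examined as gene lists. The shares to set beside their counts are those over all genes compared, 19.1% lower and 12.2% higher. Of 30 ITIM receptors and docking proteins, among them known partners of SHP-1 and SHP-2, 24 were compared, of which 12 were lower and 5 higher in the pro-B library, with a median log2 ratio of -1.06. The highest ratios were those of the B lineage receptors *Siglecg* (1.37 FPKM in pre-pro-B and 73.4 in pro-B) and *Cd22* (0.545 and 25.8), of *Sit1* (0.131 and 76.1), and of *Cd72* (43.2 and 265). The lowest ratios were those of the myeloid receptors *Clec12a* (70.6 and 0.0897) and *Cd33* (9.92 and 0.0200) and of the docking proteins *Dok2* (15.8 and 0.0998) and *Dok3* (14.9 and 0.112). *Fcgr2b* (36.3 and 46.6) and *Pecam1* (80.1 and 45.2) were within 2-fold.

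Of 16 kinases that these phosphatases oppose or activate, 15 were compared, 4 lower, 1 higher and 10 within 2-fold, with a median of -0.46. Over all genes compared, 19.1% were lower and 12.2% higher. Among the lower were *Lck* (38.0 FPKM in pre-pro-B and 2.996 in pro-B), *Fgr* (6.90 and 0.0312) and *Lyn* (71.5 and 31.6) of the Src family, and *Blk* of the same family was higher (2.97 and 7.95). Of 9 ligands of receptor-type phosphatases, 4 were compared. *Lgals1*, which encodes galectin-1, a lectin that binds CD45, had 660 FPKM in the pre-pro-B and 16.3 in the pro-B library, and *Ptn*, a ligand of the *Ptprz1* product, had 0.533 and 2.35.

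**Figure D4:**
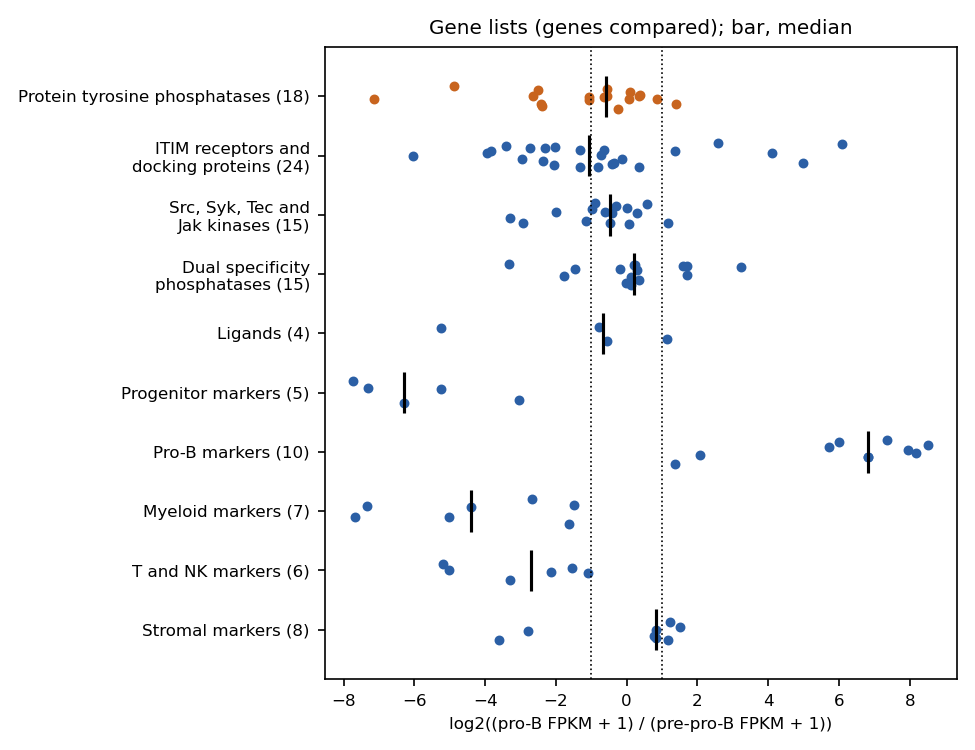
Log2 ratios of the pro-B over the pre-pro-B FPKM, with 1 added to each, for the phosphatases (top row) and the other gene lists, with the number of genes compared in parentheses. Each point is a gene, the black bar is the median of the list, and the height within a row carries no value. The phosphatases have a median of -0.60, the progenitor markers of -6.29 and the pro-B markers of 6.82.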

How the data were processed

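Total RNA depleted of ribosomal RNA was sequenced as strand-specific single-end reads of 97 bases, 1 library per cell type. The authors trimmed the reads, aligned them to mm9 with TopHat (version 1.5 by the submitters' processing notes) and made the deposited FPKM, with a status and a 95% interval per RefSeq transcript, with Cuffdiff 2.1.1. Multi-mapped reads were kept and weighted, so reads shared between similar transcripts were divided by the model. FPKM keep no counts, and fragments were approximated from transcript length and aligned reads. A further deposited table of the authors' fold changes, p-values and q-values was not used, nor were 2 per-sample columns in it.

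Of 30485 rows, the 26968 protein-coding ones (26580 accessions) were read. A RefSeq gene table named 26173 accessions, position in an mm9 annotation named others (2 member rows, of *Ptprd* and *Ptprv*), and 405 stayed unnamed. FPKM were summed per gene. Genes with a failed transcript (3) were left out of comparisons, as were genes under an FPKM of 1 in both libraries. Log2 ratios used a pseudocount of 1, and fold values of single genes used none. Promoter windows are from RefSeq on GRCm38.p6. The alternatives were other pseudocounts, filters and scalings and other ways to sum transcripts. The calling step was tested on simulated data. Python 3.11.15, numpy 2.4.6, pandas 2.3.3 and matplotlib 3.10.9 were used.

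The members and lists were chosen with earlier results of these data known. Every member was named. Of the other lists, *Ptprcap*, the targeted genes and up to 4 genes per list with the largest rise and fall were to be named, and further genes named with values were chosen after their values were seen. Some results for single genes of these lists are not reported here.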

Additional observations from a re-analysis of the deposited data

How the results depend on the processing

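No paired analysis was possible because each cell type had 1 library, and for the same reason no replicate could be left out. Under 4 other pseudocounts and scalings, 67 of 72 recomputed gene ratios stayed on their side of 2-fold and 0 reversed. The other 5 belonged to 3 genes, which came to lie within 2-fold: *Ptpn12* (-0.90 with a pseudocount of 5 and -0.97 under median-ratio scaling), *Ptpra* (-0.99 and -0.95) and *Ptprf* (-0.95 with a pseudocount of 5). With the most abundant transcript of each gene, 7 ratios changed and none crossed 2-fold. The other alternatives changed which genes were compared and not their ratios. The count of lower members was 5 of 18 with a pseudocount of 5 (9.44% of all genes lower), 5 of 15 among genes at 1 or more in both libraries (11.3%), 4 of 11 among genes with a single transcript (18.4%) and 6 of 18 under median-ratio scaling (17.6%). The receptor-type median log2 ratio was -5.41 with a pseudocount of 0.1, -0.99 with a pseudocount of 5, -1.06 among genes at 1 or more in both libraries, -3.69 among genes with a single transcript and 0 without a filter, where genes listed at 0 in both libraries enter. Without a filter the median over all members was also 0, and among genes with a single transcript the non-receptor median was 0.091. Before the pseudocount, TPM scaling shifted log2 ratios by -0.12 and median-ratio scaling by 0.11. Low FPKM rest on few fragments and on how shared reads were divided between transcripts, and a wide interval leaves the order of transcripts of a gene unresolved.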

Other observations

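The dual specificity phosphatases, a family with the phosphatases of MAP kinases and with atypical members of other substrates, included both higher and lower genes. Of 21 genes, 15 were compared, 4 higher, 3 lower and 8 within 2-fold in pro-B cells, with a median log2 ratio of 0.21. Over all genes compared, 12.2% were higher and 19.1% lower. *Dusp6*, the cytoplasmic phosphatase of Erk, measured 11.5 FPKM in the pre-pro-B and 116 in the pro-B library, and *Dusp7*, its close relative, had 30.5 and 2.13. *Dusp15* (0.0628 and 2.50), *Dusp1* (0.730 and 4.69) and *Dusp4* (0.0763 and 2.27) were also higher, and *Dusp5* (5.54 and 0.909) and *Dusp18* (2.05 and 0.106) lower in pro-B cells.

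*Ptprc* was 1 of 15 genes with an FPKM of at least 100 in pre-pro-B cells and under 1 in pro-B cells, a limit chosen after its values were seen. The low pro-B value of *Ptprc* has the limits given with that gene above. The others include *Flt3* (303 and 0.916), *Lsp1* (257 and 0.895), *Kit* (107 and 0.377) and *Cd27* (105 and 0.579).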
